A study of Mus musculus with 15 samples.

Results

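Eosinophils from the esophagus of mice at a pre-cancer stage were compared with bone marrow eosinophils of the same course of treatment, over all genes of a raw count table. The comparison used the 7 libraries labelled esophagus and the 4 labelled bone marrow, 11 of the 15 libraries in the series, and left the 4 colon libraries out. All 7 mice were C57BL/6 wild type and had a course of 8 weeks of the carcinogen 4-nitroquinoline 1-oxide (4-NQO), which acts on mouth and esophagus, followed by 8 weeks of its vehicle propylene glycol. The esophagus group came from the lamina propria by immunomagnetic positive selection. The bone marrow group is described as bone marrow-derived, and the labels do not say whether those eosinophils were isolated or grown in culture. Mice 1, 2, 5 and 6 (F, cage 1) and mice 3, 7 and 8 (M, cage 2) gave esophagus libraries. Mice 5 and 6 (F, cage 1) and mice 7 and 8 (M, cage 2) gave bone marrow libraries. Sex and cage are therefore one split, and the site of the cells and the way they were obtained cannot be told apart. No mouse was untreated, so the values hold nothing on the effect of 4-NQO.

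Eosinophils are granulocytes that mature in bone marrow under interleukin 5 and enter tissues through receptors for eotaxins and through integrins. Their granules hold eosinophil peroxidase and major basic protein, and the transcripts of these proteins are most abundant during maturation in the marrow. In tissue, eosinophils can express surface molecules of antigen presentation and of immune checkpoints.

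Depth was low. Total counts were 85677 to 371218 per esophagus library and 189060 to 286166 per bone marrow library, and 6965 to 19981 and 19020 to 22110 genes had at least 1 count. Across genes, which are not independent replicates, Spearman correlations were 0.227 to 0.505 between esophagus libraries and 0.578 to 0.655 between bone marrow libraries. Mitochondrial genes held 3.87% of counts in esophagus of mouse 1 and 2.84% in that of mouse 3, against 0.301% to 0.440% in the other 5 esophagus libraries and 0.307% to 0.645% in bone marrow. Receptor genes of smell (olfactory and vomeronasal) are used by sensory neurons. They had 1.48 to 1.64 times the counts per exonic kilobase of other coding genes in esophagus and 1.24 to 1.40 times in bone marrow, so counts were spread over genes with no known role in these cells. Uty, a Y-linked gene, had 0 counts in all 6 libraries of F mice and 12 to 19 in 4 of the 5 of M mice, with 0 in esophagus of mouse 3.

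Among genes that passed the test, the difference between the groups lay almost wholly in one direction. Of 7354 genes tested, 69 were lower in esophagus (0.938% of the genes tested) and 2 were higher (0.0272%), by edgeR's quasi-likelihood test at a Benjamini-Hochberg adjusted p under 0.05. At an unadjusted p under 0.05 there were 219 lower and 29 higher genes. These counts were 141 and 118 with libraries scaled by size alone, and 192 and 55 with DESeq2 size factors. The balance at an unadjusted p therefore depends on the scaling. The 69 lower genes had a median log2 fold change of -4.30, with a range of -9.50 to -2.06, and 60 of them were at least 8-fold lower. In 65 of the 69, all 7 esophagus libraries lay below all 4 bone marrow libraries. Over all tested genes this held for 2.22%. The 69 genes held 0.381% to 0.661% of the counts of an esophagus library and 4.41% to 17.0% of those of a bone marrow library. By class, 56 of the 69 (81.2%) were protein coding, against 94.8% of the genes tested. Over the 7354 genes the median log2 fold change was -0.15, and 0.25 when libraries were scaled by their size alone, so differences of that size depend on the scaling. In bulk libraries of this kind, fewer cells of a type and less RNA per cell cannot be told apart.

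**Figure D1:**
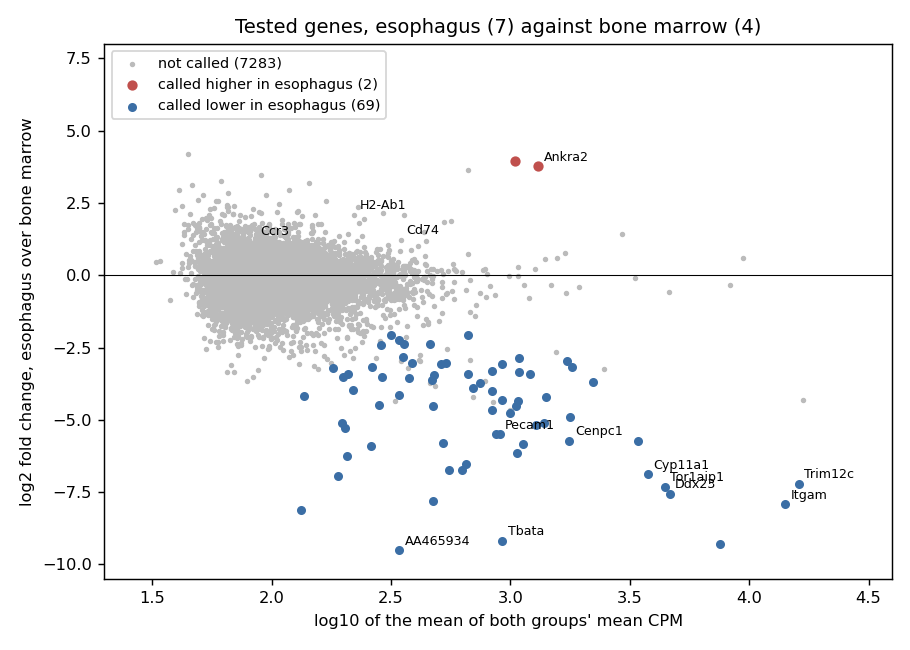
Log2 fold change, esophagus over bone marrow (y axis), against the log10 of the mean of both groups' mean CPM (counts scaled to depth, x axis) for the 7354 tested genes. The 69 genes called lower (blue) extend to the right of the cloud, where Itgam and Trim12c lie, and the 2 called higher (red) stand above 3.5 on the y axis.

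Itgam and Pecam1, which encode adhesion molecules of leukocytes, were both far lower in esophagus. Itgam (ENSMUSG00000030786.19, chromosome 7, 128062640 to 128118491, plus strand, GRCm38) encodes CD11b, the alpha chain of the integrin Mac-1. Levels are CPM scaled by the trimmed mean of M values (TMM). Itgam had 45.9, 93.8 and 283 CPM in esophagus as the lowest, median and highest of 7 libraries. In bone marrow it had 39008, 36494, 15171 and 21759 CPM in mice 5, 6, 7 and 8. Every bone marrow library lay above the highest esophagus library, that of mouse 3. The means were 118 ± 79.2 CPM (SD, n = 7) in esophagus and 28108 ± 11501 (SD, n = 4) in bone marrow, a log2 fold change of -7.92 (SE 0.87, edgeR adjusted p = 6.77e-12). In limma voom with a random mouse block the adjusted p was 0.537 at a log2 fold change of -8.13. With mouse as a fixed term in edgeR it was 4.62e-05. Reads of Itgam could also be assigned to the predicted gene Gm49368, which overlaps it on the same strand.

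Pecam1 (ENSMUSG00000020717.20, chromosome 11, 106654217 to 106750628, minus strand) encodes CD31, an adhesion molecule of endothelium, platelets and leukocytes. It had 0, 49.6 and 80.4 CPM in esophagus as lowest, median and highest, and 2109, 2740, 963 and 1270 CPM in bone marrow of mice 5, 6, 7 and 8. The groups did not overlap, and 2 esophagus libraries (mice 1 and 5) had 0 counts. Pecam1 fell with a log2 fold change of -5.49 (SE 0.60, edgeR adjusted p = 6.77e-12) and kept its call under all 27 alternatives run. No other gene of the endothelium list passed the test. The log2 differences of Emcn, Vwf, Flt1 and Kdr were 0.58, 0.12, 0.26 and -0.55, each with an edgeR adjusted p of 1.0.

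The partner chain of Itgam was at the floor of detection. Itgb2, which encodes CD18 and pairs with CD11b at the cell surface, had 4 counts in esophagus of mouse 8 and 0 in the other 6 esophagus libraries, and 0, 4, 5 and 3 counts in bone marrow. Itgax, the alpha chain CD11c, had 0 counts in 5 esophagus libraries, 4 in mouse 2 and 23 in mouse 5, and 9, 1, 4 and 3 in bone marrow. Neither passed the filter on low counts. Of the list of 33 adhesion and migration genes, 14 were tested, 2 were lower and none was higher, with a median log2 fold change of -0.46 against -0.15 for all tested genes. Itga4, Ccr1 and Cd44 of that list had log2 differences of 0.38, 0.50 and -0.41 (edgeR adjusted p = 1.0 each).

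**Figure D2:**
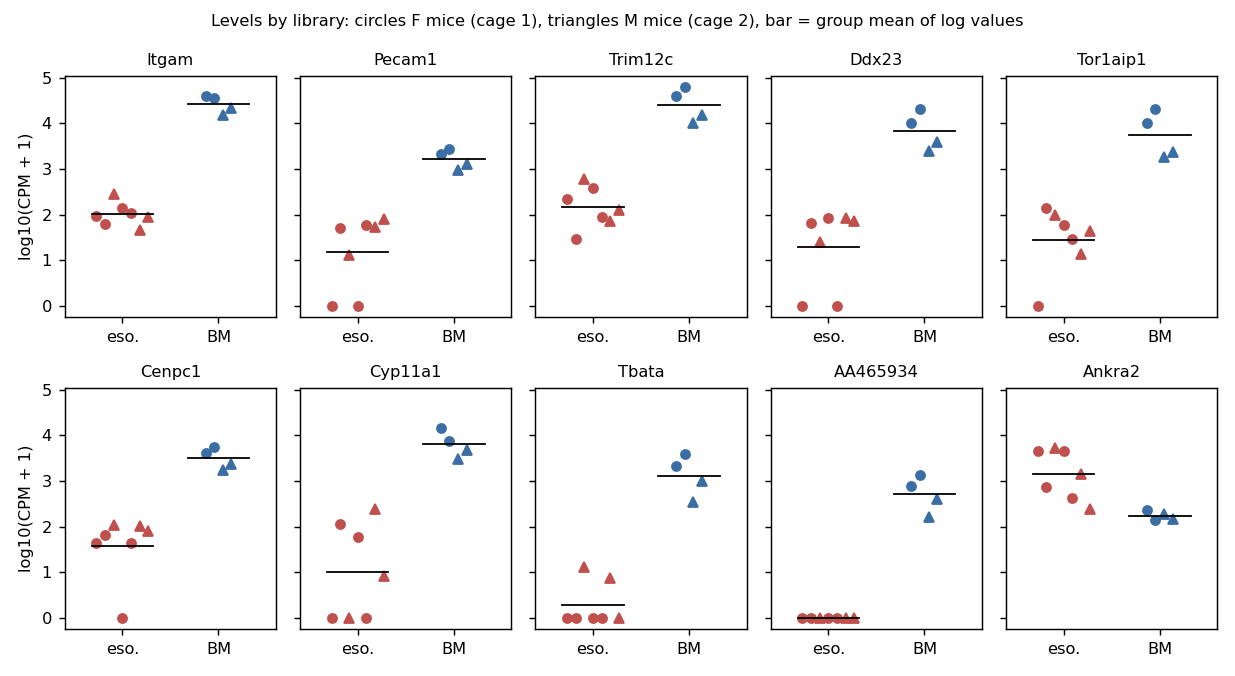
Levels of 9 genes called lower and 1 called higher (Ankra2), as log10(CPM + 1) on the y axis, with esophagus on the left and bone marrow on the right. Each point is 1 library (circles F, triangles M) and the bar is the mean of the log values. All 4 bone marrow points lie above all 7 esophagus points in the first 9 panels, and below them in the last.

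Other genes with large shares of bone marrow counts that fell in esophagus serve unlike functions. Trim12c (ENSMUSG00000057143.16, chromosome 7), a TRIM family gene with near paralogs, had 29.0, 124 and 614 CPM in esophagus and 38988, 63521, 10369 and 15147 CPM in bone marrow. The highest esophagus library, mouse 3, was below the lowest bone marrow library, mouse 7. Its log2 fold change was -7.21 (SE 0.88, edgeR adjusted p = 5.57e-10). The paralogs Trim12a and Trim5 had -0.79 and -2.17 and did not pass edgeR's test (adjusted p = 1.0 and 0.426). Reads shared between these copies may have been split by the counting, so the level of Trim12c is uncertain.

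Ddx23 (ENSMUSG00000003360.16, chromosome 15), an RNA helicase of the spliceosome, had 0, 66.2 and 85.6 CPM in esophagus. It had 10366, 20246, 2460 and 3931 CPM in bone marrow. Bone marrow of mouse 6 was the highest library and that of mouse 7 the lowest of its group, still far above esophagus. Ddx23 fell by 7.56 on the log2 scale (SE 0.81, edgeR adjusted p = 4.48e-12), or by 6.88 without bone marrow of mouse 6. Tor1aip1 (ENSMUSG00000026466.17, chromosome 1), a protein of the inner nuclear membrane, had 0, 43.9 and 137 CPM in esophagus and 9978, 21124, 1863 and 2338 CPM in bone marrow. Its log2 fold change was -7.32 (SE 0.80, edgeR adjusted p = 6.77e-12), or -6.46 without bone marrow of mouse 6. Each was the single called member of its list. The 15 tested genes of the RNA helicase and spliceosome list had a median log2 fold change of -0.21 and the 13 of the nuclear envelope and lamina list -0.20, near that of all genes.

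Cenpc1 (ENSMUSG00000029253.13, chromosome 5), a protein of the centromere, had 0, 66.2 and 111 CPM in esophagus and 4049, 5691, 1740 and 2412 CPM in bone marrow. Its log2 fold change was -5.72 (SE 0.64, edgeR adjusted p = 1.34e-11). Cyp11a1 (ENSMUSG00000032323.14, chromosome 9), which cleaves the side chain of cholesterol in the first step of steroid synthesis, had 0, 7.31 and 242 CPM in esophagus and 14405, 7648, 3102 and 4744 CPM in bone marrow. Mice 2 and 7 held 27 and 37 of its esophagus counts and the other 5 libraries 0 to 4. Its log2 fold change was -6.88 (SE 0.96, edgeR adjusted p = 1.61e-05), and -7.83 without esophagus of mouse 7. The Cyp11a1 call was lost without bone marrow of mouse 5 or 6, with adjusted p of 0.143 and 0.185. Ebf1, a transcription factor of B cell development, had 0, 102 and 269 CPM in esophagus and 1542, 2475, 585 and 974 CPM in bone marrow (log2 fold change -3.73, SE 0.58, edgeR adjusted p = 2.49e-06). Pax5, Ms4a1 and Xbp1, the other tested genes of the B and plasma cell list, had -0.64, 0.22 and -0.09 (edgeR adjusted p = 1.0 each).

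In limma voom with a random mouse block several of these calls were lost, with no change of direction. That fit differs from the main one in tool as well as block, and the part of each was not tested. Its consensus correlation within mice was 0.0394. The adjusted p was then 0.703 for Trim12c, 0.753 for Ddx23, 0.745 for Tor1aip1, 0.632 for Cyp11a1 and 0.0740 for Cenpc1, and 0.00334 for Pecam1. With mouse as a fixed term in edgeR all 6 kept their calls. Limma voom with quality weights also ended the calls of Trim12c, Ddx23, Tor1aip1 and Cyp11a1 (adjusted p = 0.341, 0.454, 0.457 and 0.388). Among genes described next, limma voom with quality weights did not call Tbata, Bco1, Pde6a, Dppa2, 5830416I19Rik, Ghdc and Gm19087 (adjusted p = 0.146, 0.113, 0.192, 0.146, 0.146, 0.146 and 0.0667). Limma voom with the random block gave 0.0923 for 5830416I19Rik and 0.0754 for Ghdc.

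In edgeR on M mice alone (3 against 2), several calls were lost, all with the sign unchanged. The adjusted p was 1.0 for Cyp11a1, Bco1, Amt, Dppa2 and Ghdc, 0.803 for Ebf1, 0.802 for Gm17634, 0.119 for Gm4034 and 0.108 for Pde6a. Bco1 was at -4.48 and Dppa2 at -3.32 on the log2 scale, Pde6a at -4.17 and Ghdc at -4.62, Cyp11a1 at -5.56 and Ebf1 at -2.69. Without a filter on low counts the Cyp11a1 call was also lost (edgeR adjusted p = 0.138).

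Several of the lower genes were close to or at 0 in esophagus. AA465934, a noncoding transcript on chromosome 11, had 0 counts in all 7 esophagus libraries and 80, 130, 29 and 61 in bone marrow of mice 5, 6, 7 and 8. Against a floor of 3 counts in each esophagus library it was at least 26.5-fold lower in esophagus (edgeR adjusted p = 2.98e-13). Gm17634, a noncoding transcript antisense to Rnf152, also had 0 counts in esophagus and 39, 37, 25 and 21 in bone marrow, which is at least 10.3-fold lower in esophagus (edgeR adjusted p = 9.22e-06). Whether the counting used strand is not given in the sources used here, so its reads and those of Rnf152 cannot be told apart.

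Tbata, a gene known from thymus and testis, had 1 count each in esophagus of mice 3 and 7 and 0 in the other 5, and 211, 372, 61 and 149 in bone marrow. The pooled bone marrow level was 713 times that of esophagus (exact 95% interval 197 to 5900, edgeR adjusted p = 1.56e-17). The ratio was 463 without bone marrow of mouse 6, and 1303 or 1195 without esophagus of mouse 3 or 7. Bco1, which cleaves beta-carotene, had 3 counts in esophagus of mouse 8 and none in the other 6, and 64, 263, 29 and 29 in bone marrow. Its pooled ratio was 231 (78.4 to 1124, edgeR adjusted p = 1.51e-08), and 89.4 without bone marrow of mouse 6. Amt, of the glycine cleavage system, had 1 count each in esophagus of mice 2 and 3, and 43, 68, 18 and 38 in bone marrow, a ratio of 150 (40.9 to 1251, adjusted p = 1.41e-06). The Amt ratio was 109 without bone marrow of mouse 6 and 274 without esophagus of mouse 3. These intervals cover counting error alone.

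The other genes named by size of change were Pde6a, of the phototransduction cascade of the retina, Dppa2, of pluripotent cells, Ghdc, Gm8050, the lincRNA 5830416I19Rik and the processed pseudogenes Gm19087, Gm4034 and Gm3953. Their log2 fold changes ran from -6.74 for Gm8050 to -5.79 for Dppa2. Reads of pseudogenes may be shared with their parent genes. Ghdc had the weakest support, with an edgeR adjusted p of 0.0245 that became 0.264 without bone marrow of mouse 6 and 0.0570 without that of mouse 5. It was 0.0539 to 0.175 under the 3 other scalings and 0.0562 with sex or cage as a term. Esophagus of mouse 2 held all 11 counts of Gm8050, 9 of Gm3953 and 5 of Gm4034 in that group, and without it their log2 fold changes were -10.06, -8.96 and -8.63. Without esophagus of mouse 8, Dppa2 was at -7.55 and Gm19087 at -8.04. Without bone marrow of mouse 6, Dppa2 was at -4.91, Gm19087 at -6.12, Pde6a at -5.80 and 5830416I19Rik at -5.55. Pde6a was at -7.56 without esophagus of mouse 7 and Ghdc at -6.66 without that of mouse 3.

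The lower genes also included 3 sensory receptor genes. Olfr1039, Olfr898 and Vmn1r13 had log2 fold changes of -3.68, -3.06 and -3.04 (edgeR adjusted p = 0.00281, 9.59e-04 and 1.05e-04). They were picked with their values known. The Olfr1039 call was lost without bone marrow of mouse 6 (adjusted p = 1.0) with libraries scaled by size alone (0.919), without a filter (0.144) and in the fit of all 15 libraries (0.143), and that of Olfr898 in mice 5 to 8 alone (0.0804) and with a random mouse block in limma voom (0.0575). In M mice alone none of the 3 was called (edgeR adjusted p = 1.0, 0.649 and 0.954). Rsu1, Sec61a1 and Pycr1, picked in the same way, show the spread of functions. Rsu1, a partner of integrin-linked kinase, had 0, 86.9 and 318 CPM in esophagus and 10376, 14037, 996 and 1492 CPM in bone marrow. Sec61a1, the channel of the endoplasmic reticulum translocon, had 0, 28.5 and 116 CPM in esophagus and 1870, 3776, 400 and 793 CPM in bone marrow. Pycr1, of proline synthesis, had 28.9, 45.9 and 128 CPM in esophagus and 2069, 3099, 524 and 732 CPM in bone marrow. In all 3, the F bone marrow libraries were above the M ones. Their log2 fold changes were -5.72, -5.49 and -4.68 (edgeR adjusted p = 5.80e-05, 2.35e-06 and 2.29e-10). With a random mouse block in limma voom the adjusted p was 0.685, 0.101 and 0.0526, and with quality weights 0.422 for Rsu1 and 0.148 for Sec61a1. For Rsu1 edgeR gave 0.193 or 0.391 without bone marrow of mouse 5 or 6, and 0.183 without a filter.

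That order held across the lower genes. In 66 of the 69 (95.7%), both bone marrow libraries of F mice lay above both of M mice, against 18% of all tested genes, and in none did both lie below. The highest library was bone marrow of mouse 6 in 56 of the 69 and that of mouse 5 in 11. The full order of mice 6, 5, 8 and 7 from high to low appeared in 50 of the 69 (72.5%) and in 5.59% of all tested genes. The median level of the 69 genes was 1393, 2412, 445 and 732 CPM in bone marrow of mice 5, 6, 7 and 8. In the esophagus libraries, all F above all M held for 5 of the 69 (7.2%), against 2.2% of all tested genes. Sex, cage and library cannot be told apart here. Within F mice (4 against 2) all 69 had a log2 fold change below 0, 62 were called and the median was -5.22. Within M mice (3 against 2) all 69 were below 0, 31 were called and the median was -3.60. Over all genes tested in these fits the medians were -0.15 and -0.30. The 69 were called on these same libraries, so their sign within each sex was largely set in advance and is no separate support. Each of these fits has 2 bone marrow libraries.

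Many of the lower genes shared a feature of sequence. A purine or pyrimidine run is a stretch of at least 20 bases made of A and G alone or of C and T alone in any annotated transcript of the gene. Stretches made wholly or almost wholly of a single base, such as poly-A tails, were not counted as runs. One is shown to let the feature be seen, written 5′ to 3′ on the transcript strand with the run in capitals and the 6 bases before it in lower case. It lies in an exon of a noncoding transcript of Cyp11a1 that retains an intron. Positions are those of the printed bases on GRCm38, the build of GENCODE M21, which may differ from that of the authors.
Cyp11a1, chr9:58022241-58022312, plus strand: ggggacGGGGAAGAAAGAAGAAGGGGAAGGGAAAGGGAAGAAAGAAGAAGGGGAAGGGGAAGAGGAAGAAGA

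This run is 66 bases long. Those of Itgam, Trim12c and Bco1 lie in the 3′ UTR and are 89, 141 and 139 bases long. Ddx23, Tbata, AA465934 and Amt hold no run of 20 bases. Of the 69 lower genes, 53 (76.8%) held a run of at least 20 bases, against 60.4% of the genes tested. Runs of at least 80 bases were in 35 of the 69 (50.7%), against 5.43% of the genes tested. Counted by run length, 8.77% of the 399 tested genes with 80 bases or more were lower, 1.03% of the 975 with 40 to 79, 0.262% of the 3058 with 20 to 39 and 0.550% of the 2910 with no run of 20 bases. The median log2 fold change was -0.64, -0.23, -0.15 and -0.05 in the same order. Their median exonic lengths were 7976, 8143, 7577 and 5792 bases. The limits of 40 and 80 bases were chosen after values were seen, and these shares carry no test. Without genes that hold a run, 23 of 2922 tested genes were lower, beside 69 of 7354 in the main fit. All 16 of the 69 that were tested there kept their calls.

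Over whole libraries, genes with a run of at least 20 bases held 49.9% to 53.3% of counts in esophagus and 55.0% to 60.9% in bone marrow. The means were 51.8% ± 1.39 (SD, n = 7) in esophagus and 57.7% ± 2.76 (SD, n = 4) in bone marrow. The groups did not overlap, and the difference of means was -5.91 percentage points. This share includes the 69 genes called lower on the same libraries, so no test of it is given. Without the 69 lower genes the means were 51.7% in esophagus and 54.8% in bone marrow, a difference of -3.08, with ranges of 49.6% to 53.2% and 53.5% to 56.7%. This value carries no test. The lowest bone marrow values were those of M mice. Within F mice the difference was -8.24 and within M mice -3.56, with few libraries in each.

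**Figure D3:**
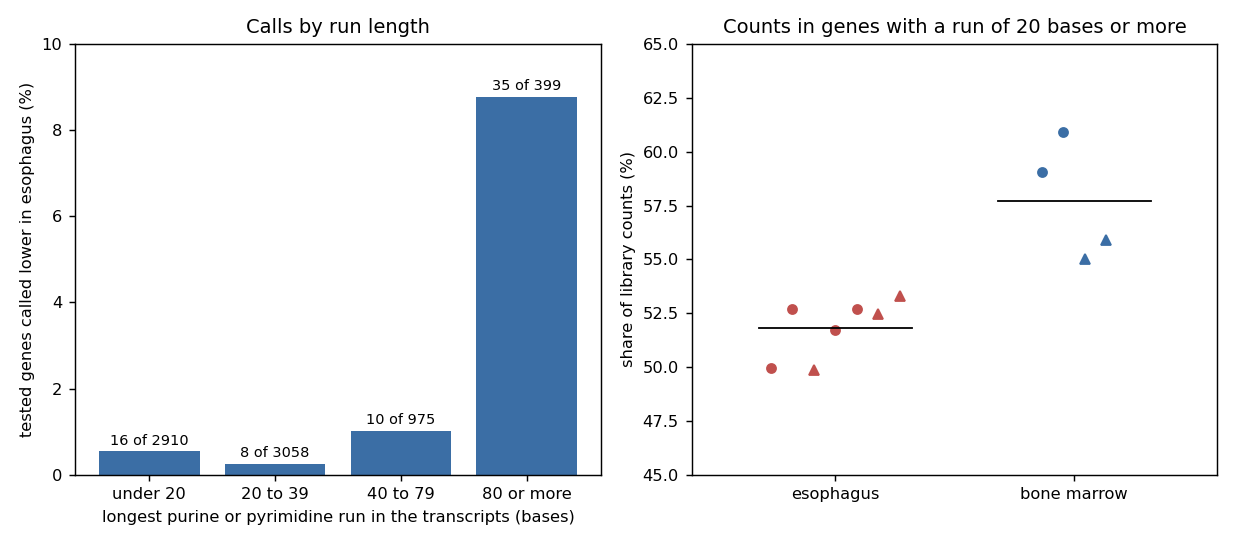
Left, percent of tested genes called lower in esophagus by the longest purine or pyrimidine run in their transcripts (35 of 399 genes with 80 bases or more). Right, percent of each library's counts in genes with a run of 20 bases or more (axis from 45 to 65), esophagus at 49.9 to 53.3 and bone marrow at 55.0 to 60.9 (circles F, triangles M, bar = mean).

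Counts were less concentrated in esophagus. The 10 most abundant genes of each library held 1.97% to 7.05% of counts in esophagus (median 2.35%) and 4.26% to 14.0% in bone marrow. The highest esophagus values, 5.83% and 7.05%, were those of mice 1 and 3, which also had the most mitochondrial counts, and they overlapped bone marrow of mice 7 and 8. The difference of means was -5.04 percentage points (exact two-sided permutation p = 0.0424, not adjusted). In bone marrow this share includes Trim12c and Itgam, which were called lower on these same libraries. The p is therefore no support separate from those calls, and the share without the called genes was not tested. The difference did not hold in 9 of the 11 fits that left out 1 library (exact permutation p of 0.05 to 0.117). The smallest difference was -3.26, without bone marrow of mouse 6. It was -8.82 within F mice and -1.21 within M mice.

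Genes with the highest mean share of counts in esophagus were Rn18s, the 18S ribosomal RNA, Nopchap1, COX1, Slc38a6 and Noct. In bone marrow they included Trim12c, Itgam and Nopchap1. Slc38a6, an amino acid transporter, and Noct, a clock-regulated phosphatase, had log2 differences of -0.57 and -0.09 (adjusted p = 1.0 each).

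Among the genes called higher in esophagus was Ankra2, an ankyrin repeat protein. Ankra2 (ENSMUSG00000021661.17, chromosome 13) had 529, 178, 425, 315, 59, 221 and 33 counts in esophagus of mice 1, 2, 3, 5, 6, 7 and 8, and 23, 13, 34 and 22 in bone marrow. Its levels were 241 to 5221 CPM in esophagus and 138 to 229 CPM in bone marrow, so the lowest esophagus library, that of mouse 8, was barely above bone marrow. The log2 fold change was 3.78 (SE 0.76, edgeR adjusted p = 3.66e-04). With mouse as a fixed block in edgeR the adjusted p was 0.137 for Ankra2, and limma voom with a random mouse block gave 0.604. In edgeR's fit of all 15 libraries it was 0.0959, in F mice alone 0.229 and in M mice alone 0.716.

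Most genes that define eosinophils were close to the floor in both groups, so that the labelled cell type has little support of its own in these counts. Il5ra and Ccr3 were above the floor in some esophagus libraries. Epx encodes eosinophil peroxidase. No esophagus library held a count of it, a result that permits levels of up to 8.08 CPM in the deepest library, and bone marrow held 3, 5, 3 and 2 counts. Prg2, major basic protein, was counted 10 times in esophagus of mouse 6 and nowhere else. Siglecf encodes the lectin by which mouse eosinophils are often sorted, and had 0 to 9 counts in esophagus and 0 to 6 in bone marrow. Il5ra, the interleukin 5 receptor, had 33, 0, 0, 3, 27, 3 and 15 counts in esophagus and 4, 5, 4 and 8 in bone marrow. Of 8 granule protein genes in the table none passed the filter, and their summed level was 0 to 153 CPM in esophagus (median 0) and 21.1 to 84.6 CPM in bone marrow.

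Among the 24 genes for eosinophil surface molecules and receptors, 7 were tested and 1, Itgam, was lower. Summed over the list, levels were 696 to 1115 CPM in esophagus and 10043 to 21465 CPM in bone marrow. Without Itgam they were 622 to 1038 CPM in esophagus and 608 to 762 CPM in bone marrow, so that the groups overlapped. Ccr3, the eotaxin receptor, had 0 to 214 CPM in esophagus and 5.63 to 95.2 CPM in bone marrow (log2 difference 1.21, SE 1.07, edgeR adjusted p = 1.0). Csf2rb, the chain shared by the receptors for interleukin 3, interleukin 5 and GM-CSF, had 0 to 183 and 80.6 to 163 CPM (-1.28, SE 1.05, adjusted p = 1.0). The factors of granulocyte fate Spi1, Gata1, Gata2 and Cebpe did not pass the filter, and Cebpe had 0 or 1 count in each esophagus library and 0 to 2 in bone marrow.

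**Figure D4:**
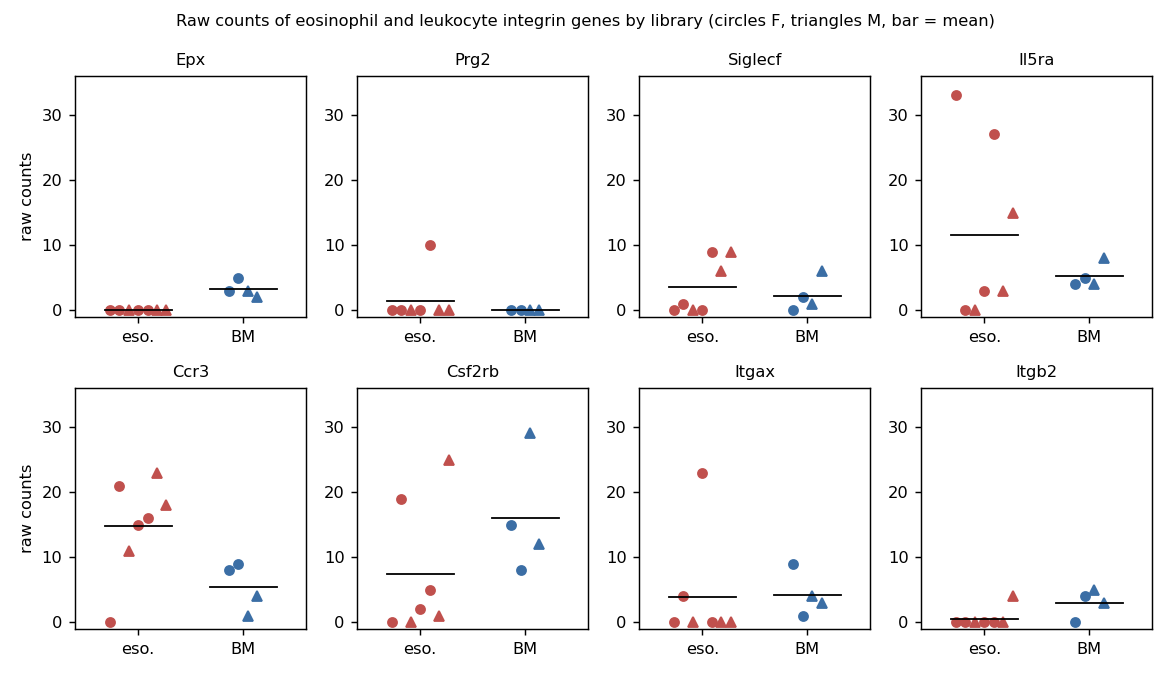
Raw counts (y axis) of 6 eosinophil genes and 2 leukocyte integrin genes, esophagus on the left and bone marrow on the right of each panel. Each point is 1 library (circles F, triangles M) and the bar is the mean. Epx is at 0 in all 7 esophagus libraries, and no value exceeds the 33 counts of Il5ra in esophagus of mouse 1.

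Of 13 class II antigen presentation genes 5 were tested, and none passed. The log2 difference was above 0 in 4 of them. H2-Ab1, a class II beta chain, had 120, 275 and 774 CPM in esophagus and 79.6, 95.2, 113 and 47.0 CPM in bone marrow. All 7 esophagus libraries were above all 4 bone marrow libraries, as in 6 of the genes tested (0.0816%), with a log2 difference of 2.09 (SE 0.66, edgeR adjusted p = 0.167). The adjusted p was 0.00884 with libraries scaled by size alone, 0.0195 by DESeq2, 0.0439 in mice 5 to 8 alone and 0.0434 without esophagus of mouse 1. H2-Ab1 was called in these 4 of 28 alternatives only. The edgeR adjusted p was 0.779, 0.620 and 0.9998 without bone marrow of mouse 5, 6 or 8. With mouse as a fixed term it was 0.107 in edgeR, and with a random mouse block 0.526 in limma voom. H2-Aa, the alpha chain, had 20.7, 246 and 1099 CPM in esophagus and 89.5, 95.2, 107 and 108 CPM in bone marrow (1.93, SE 0.67, adjusted p = 0.306). Cd74, the invariant chain, had 157 to 1056 CPM in esophagus and 101 to 465 CPM in bone marrow (1.23, SE 0.57, adjusted p = 1.0). H2-Eb1 and Ciita, the class II transactivator, were at 0.93 and -0.69. Untested members included Ifi30, with 0 counts in all 7 esophagus libraries and 1 to 8 in bone marrow. H2-Ob had a median of 0 counts in esophagus (highest 27) and 5 to 10 in bone marrow, and H2-DMa a median of 0 (highest 22) and 2 to 16. The median of the 5 tested genes was 1.23, and 1.38 above that of all genes, or 1.48 to 1.59 above it under the 3 other scalings. A scaling shifts all genes by nearly the same amount, so these values are not separate support. Lyz2 and Csf1r, the tested genes of the macrophage list, had 1.26 and 0.38 (adjusted p = 1.0 each). The 14 macrophage genes summed to 330 to 674 CPM in esophagus and 276 to 360 CPM in bone marrow, and the 12 dendritic cell genes to 81.7 to 706 and 217 to 375. Their part in the class II values was not tested.

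Cd274, which encodes the checkpoint ligand PD-L1, had 1, 1, 0, 5, 3, 2 and 31 counts in esophagus and 24, 15, 5 and 13 in bone marrow. Esophagus of mouse 8 lay within the range of bone marrow and the other 6 were lower than 3 of its 4 libraries. The log2 difference was -1.35 (SE 1.05, edgeR adjusted p = 1.0), or -2.73 without esophagus of mouse 8, and 0.39 in M mice alone. Of the 25 genes listed for activated tissue eosinophils, 14 were tested and none passed, with a median of -0.05. Cd63, Cxcl2, Il1b and Tgfb1 among them had 1.11, 0.96, 0.35 and 0.43.

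Across the 39 gene lists, 9 held a called gene and no list held a gene called higher. These were Itgam in the eosinophil surface, adhesion and monocyte lists, Pecam1 in the adhesion and endothelium lists, and Trim12c, Ddx23, Tor1aip1, Cenpc1 and Ebf1 in 1 list each. Of the 26 lists with at least 3 tested genes, 13 had a median above that of all genes. The 13 tested genes of hypoxia and glycolysis had a median of 0.50, led by Pfkl, phosphofructokinase of the liver type, at 2.77 and Ldha, lactate dehydrogenase A, at 2.02 (edgeR adjusted p = 0.590 and 1.0). The 7 tested mitochondrially encoded genes were all above 0, with a median of 0.57 and COX1 at 1.44 (adjusted p = 1.0), and the mitochondrial share was highest in esophagus of mice 1 and 3. The 9 tested genes of matrix remodelling had a median of -0.93, with Adam17, a sheddase, at -1.64 and Plau, urokinase, at -1.43 (adjusted p = 1.0 each). The 13 tested genes of the type I interferon response had a median of -0.70, and apart from Trim12c their values lay between -2.17 for Trim5 and 1.59 for Ifit2. Relative to all genes, the medians of these 4 lists kept their sign under all 4 scalings. A scaling shifts all genes by nearly the same amount, so this sign could hardly change and is no support for the lists.

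**Figure D5:**
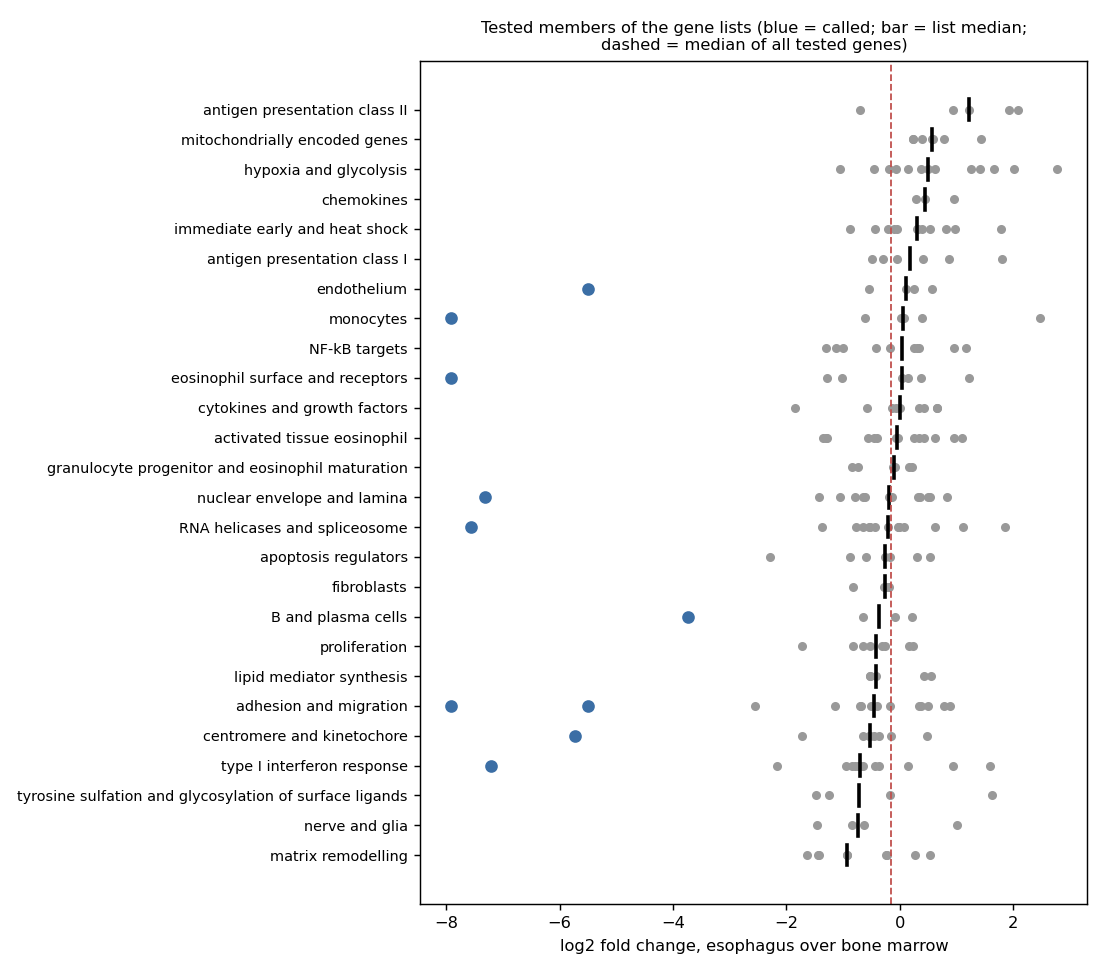
Log2 fold change, esophagus over bone marrow (x axis), of each tested gene in the 26 lists with at least 3 tested genes. Grey points were not called, blue points were called lower, the bar is the list's median and the dashed line the median of all tested genes (-0.15). Called genes stand apart from the rest of their lists, at -3.73 or below.

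Summed markers of some other cell types reached the level of the eosinophil surface list. Without Itgam that list reached 1038 CPM in esophagus, and the highest esophagus sums of the squamous, nerve and neutrophil lists were above it. The monocyte list, which holds Itgam, summed to 379 to 819 CPM in esophagus and 9613 to 20979 CPM in bone marrow. The endothelium list, which holds Pecam1, summed to 315 to 799 CPM in esophagus and 1048 to 1619 CPM in bone marrow. The B and plasma cell list, which holds Ebf1, summed to 162 to 596 CPM in esophagus and 762 to 1486 CPM in bone marrow. The part of these cells in the results was not tested. The 21 measured genes of squamous epithelium, the tissue above the lamina propria, summed to 112 to 1433 CPM in esophagus and 196 to 391 CPM in bone marrow, with Trp63 and Dsg3 tested and not called (0.18 and 0.60, edgeR adjusted p = 1.0 each). The 14 neutrophil genes summed to 56.5 to 1097 CPM in esophagus and 129 to 458 CPM in bone marrow. The 12 genes of smooth and skeletal muscle summed to 107 to 473 CPM in esophagus and 122 to 175 CPM in bone marrow, and those of nerve and glia to 409 to 1708 and 468 to 1125. S100a8 had 0 to 14 counts in esophagus and 0 to 7 in bone marrow.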

How the data were processed

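The deposited table holds the authors' raw counts, all whole numbers, for 26366 genes. Per the labels' protocols, an Ovation RNA-Seq System V2 kit amplified the RNA before library preparation. Of tools, limma 3.50.3 is listed, without its purpose, per the submitters' processing notes. What aligner, counter, build and annotation were used is not given in the sources used here. GENCODE M21 held 26299 (99.75%) of the stable Ensembl identifiers, 11 in the same version, and gave gene class, positions and transcript sequences.

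From the deposited counts, 7354 genes passed filterByExpr (at least 10 counts, total of at least 15). They were scaled by TMM and tested with edgeR 4.0.16 (quasi-likelihood, robust, no block, R 4.3.3) over the 11 libraries. The common biological coefficient of variation was 0.903, with 9 residual degrees of freedom. Adjusted p-values are Benjamini-Hochberg values over all tested genes, and every adjusted p given for a gene is from this test unless another tool is named. Alternatives used DESeq2 1.42.0 and limma 3.58.1. Python 3.11.15 with scipy 1.17.1 served for the rest. SEs come from the F statistic. CPM of tested genes are relative to tested counts times the TMM factor, and CPM of untested genes and sums over lists to the library total. The floor of 3 counts is 8.08 to 35.02 CPM of the total in esophagus and 10.5 to 15.9 in bone marrow. Pooled ratios have exact 95% intervals. For densities of receptor genes, the most abundant 1% of genes were dropped. The edgeR step was tested on simulated data.

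Mice 5 to 8 gave both kinds of library, so mouse numbers pair samples by animal. Deviations from the group means correlated at 0.00803 to 0.0391 in the 4 same-mouse pairs and at -0.0313 to 0.0247 in the 24 others. Replicates are separate mice, per the labels.

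Genes were named if they were among the 20 largest changes in a direction whose libraries do not overlap, if they were called members of a list, if they were among 17 fixed eosinophil and immune genes, or if they were among the 5 most abundant of a group. Members, lists and rules were chosen with earlier results of these data known. Promoter motifs were not compared, because 50 of the 69 lower genes had a promoter sequence, too few for the check. Some genes and sequences that meet these rules are not reported here.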

Additional observations from a re-analysis of the deposited data

Results flagged for a closer look

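By Dixon's criterion, 1 library stood apart from its group of 4 or 7 libraries in 17 of 82 groups tested. The rate of about 1 in 20 expected by chance assumes normally distributed values. In several flagged groups all libraries but 1 held no counts of the gene. That rate is therefore no benchmark here, and the 17 flags do not show an excess.

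Among genes called lower, the library apart was in esophagus. Mouse 2 had 45.5 CPM of Gm8050, 37.2 of Gm3953 and 20.7 of Gm4034, with 0 in the other 6 libraries. Mouse 8 had 21.9 CPM of Bco1 (others 0), 51.2 of Gm19087 (others 0 to 19.7) and 95.03 of Dppa2 (others 0 to 12.4). Mouse 7 had 52.4 CPM of Pde6a (others 0 to 14.6). Mouse 3 had 12.3 CPM of Amt (others 0 to 4.14) and 283 of Itgam (others 45.9 to 143). All of these lie below the lowest bone marrow library of the same gene.

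Among genes with higher values in esophagus, mouse 3 had 19372 CPM of COX1, with 790 to 5656 in the others, and this was 1 of the 2 libraries with the most mitochondrial counts.

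Among the fixed immune genes, esophagus of mouse 8 had 227 CPM of Cd274 (others 0 to 71.4) and 183 of Csf2rb (others 0 to 78.6). Esophagus of mouse 2 had 197 CPM of Gata2 (others 0 to 74.0) and that of mouse 5 had 258 of Itgax (others 0 to 10.8). In bone marrow, mouse 6 had 465 CPM of Cd74 (others 101 to 158), mouse 5 had 26.4 of Spi1 (others 0 to 3.49), and mouse 6 had the lowest level of Noct, at 3131 CPM (others 3528 to 3535). What set these libraries apart was not tested.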

How the results depend on the processing

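The count of lower genes stayed within 1.5 times of 69 under every alternative but 2, with 23 lower genes without those that hold a run, where fewer genes are tested, and 34 in M mice alone, where fewer libraries are used. With 1 library left out it ranged from 65 to 94, and the higher count from 2 to 3. The higher count was 8 with library size alone, 4 without a filter, 6 by DESeq2 and 1 without genes that hold a run. It was 1 with mouse as a fixed replicate block, 0 with mouse as a random replicate block in limma voom (7 at an unadjusted p under 0.05) and 0 in F mice alone (43 unadjusted). Neither block held Ankra2. The fixed block gave 80 lower genes, 58 of them among the 69, and the random block 77, with 43. Limma voom with quality weights gave 50, with 34. Fitting all 15 libraries gave 84 lower genes, 67 among the 69, and 2 other higher genes. The causes were not tested.

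In bone marrow the top 10 share includes genes called lower on the same libraries, so its p is no separate support. The difference in that share was -3.78 with 5 genes (exact permutation p = 0.0667). It was -8.82 in F mice and -1.21 in M mice, and -6.50 to -3.26 with 1 library left out. The difference in genes with a run was -8.24 in F and -3.56 in M mice, and -6.82 to -4.84 with 1 library left out. Of the genes named by rule, Cd274 reversed, to 0.39 in M mice alone. H2-Aa, named after its values were known, was at -0.05 by limma voom with quality weights and was called higher with library size alone (adjusted p = 0.0347). Ccr1, H2-Eb1 and Cd44, named likewise and not called, also changed sign: Ccr1 and H2-Eb1 were at -0.32 and -0.31 with mouse as a fixed replicate block, and Cd44 at 0.20 in F mice alone. The alternatives by mouse sex and cage were chosen after seeing the data. Depth limits most genes, since 27.9% of those in the table could be tested.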
